A study of Daphnia magna with 27 samples.

Results

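Cyclin b and cyclin b3 were the reporters whose deposited name begins with "cyclin". They were 2 of the 2261 spotted cDNA reporters on an array of the water flea Daphnia magna, and 2 of the 40 reporters that carry a name. The identifiers of both (EBT_DamaRep_ASP1 C7 for cyclin b and EBT_DamaRep_ASP5 B5 for cyclin b3) hold the token Rep, as do those of 729 reporters in all. The rule uses the names alone. The deposited names were not matched to a gene, a sequence or a genome position, so none is given.

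B-type cyclins are regulatory subunits that bind a cyclin-dependent kinase and switch it on, which drives cells into mitosis. They are then marked with ubiquitin and destroyed by the proteasome, which lets cells leave mitosis, so their level rises and falls with division. Cyclin B3 is a separate branch of the family that is needed for female meiosis in Drosophila and in mice. Adult female daphnids combine growth by moulting with repeated production of clonal eggs, so dividing body tissues, ovary and developing eggs can all contribute to a whole-body RNA sample.

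Transcripts were measured in 27 samples, in 9 groups of 3, and each sample held 10 adults of clone K6 extracted whole and together. RNA of each sample was hybridised on a 2-colour array against a shared reference pool of daphnids of several ages. The study asked how zinc exposure in a daphnid's own life or in that of its ancestors relates to its transcript profile. All groups shared modified M4 medium, and zinc was raised to 388 µg/L in some of them.

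Controls were kept for successive generations, named CtrlF0 (20 days old at sampling), CtrlF1 (22 days) and CtrlF2 (20 days). ZnF0 (23 days) was the first generation in zinc. Its offspring stayed in zinc as Zn(+)F1 (21 days) or went back to control medium as Zn(-)F1 (21 days). Of the next generation, Zn(+)F2 (21 days) was kept in zinc and Zn(+/-)F2 (22 days) was returned to control medium, both from Zn(+)F1 mothers. Zn(-/-)F2 (22 days) descended from Zn(-)F1 and grew in control medium. The samples are whole bodies of 1 clone, so a lower value can come from fewer dividing or egg-producing cells or from less transcript per cell, and these cannot be told apart. The labels do not state if the 3 pools of a group were reared apart, and the p-values may then measure technical spread.

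Age, dye and generation differed along with zinc. All arrays of CtrlF0, ZnF0 and CtrlF1 carried the sample in Cy5, and all arrays of Zn(+)F1 and Zn(-)F1 carried it in Cy3, so dye and zinc history cannot be told apart within F1 alone. The F2 groups held both orientations. CtrlF0 arrays 1 and 3 were equal to within 0.001 in all 2066 reporters with a value and were counted as 1 array, so CtrlF0 has n = 2. Zn(+)F1 array 2 listed 886 reporters against 2066 to 2254 on the other arrays, and neither cyclin was among them. On the 3 arrays of CtrlF2 and the 3 of Zn(+)F2 the median of all reporters lay far from 0, between -0.40 and -0.31 where the sample was in Cy3 and between 0.31 and 0.35 where it was in Cy5. Values are therefore given both as deposited and after the array's own median was subtracted, called centred here. Among markers of adult females, 3 reporters named vtg (vitellogenin is the yolk protein precursor) were present. Their average log2 expression was 10.8 to 11.2 for the brightest, and 7.39 to 8.88 and 4.76 to 7.55 for the others. That average covers all arrays and both channels, so it includes the reference pool. Of the muscle and cytoskeleton names searched, 1 tubuline reporter was found and no actin, myosin or troponin.

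In the authors' deposited table of each comparison, cyclin b3 was lower than in CtrlF0 in ZnF0, CtrlF1 and CtrlF2, and each difference passed an adjusted p of 0.05. Cyclin b passed in none of the 4 deposited comparisons. Cyclin b3 stood at 0.800 of the CtrlF0 level in ZnF0 (95% interval 0.690 to 0.929), at 0.818 in CtrlF1 (0.739 to 0.905) and at 0.830 in CtrlF2 (0.731 to 0.941), as linear ratios computed from the authors' deposited table. These 3 comparisons share the CtrlF0 arrays and are not independent of each other. Whether the authors' fit counted the identical CtrlF0 arrays as separate samples is not stated. If it did, the intervals and p-values against CtrlF0 may be too small.

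On single arrays, the log2 ratio of sample to reference for cyclin b3 was 0.26 and 0.30 in CtrlF0. It was 0.06, 0.12 and -0.21 in ZnF0. It was 0.20, -0.07 and -0.04 in CtrlF1. Both CtrlF0 arrays were above every array of these groups, although the highest CtrlF1 array came close. In CtrlF2 the values were -0.40, -0.24 and 0.23, and the high one was the Cy5 array. After centring they were -0.06, 0.07 and -0.11, all below the centred CtrlF0 values of 0.29 and 0.29. The dye-linked gap within CtrlF2 was thus gone after centring, and the groups did not overlap on either scale. Lack of overlap with CtrlF0 was common: as deposited it held for 48.4 percent of reporters in ZnF0, 39.5 percent in CtrlF1 and 17.5 percent in CtrlF2, and after centring for 48.8, 39 and 34.8 percent.

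**Figure D1:**
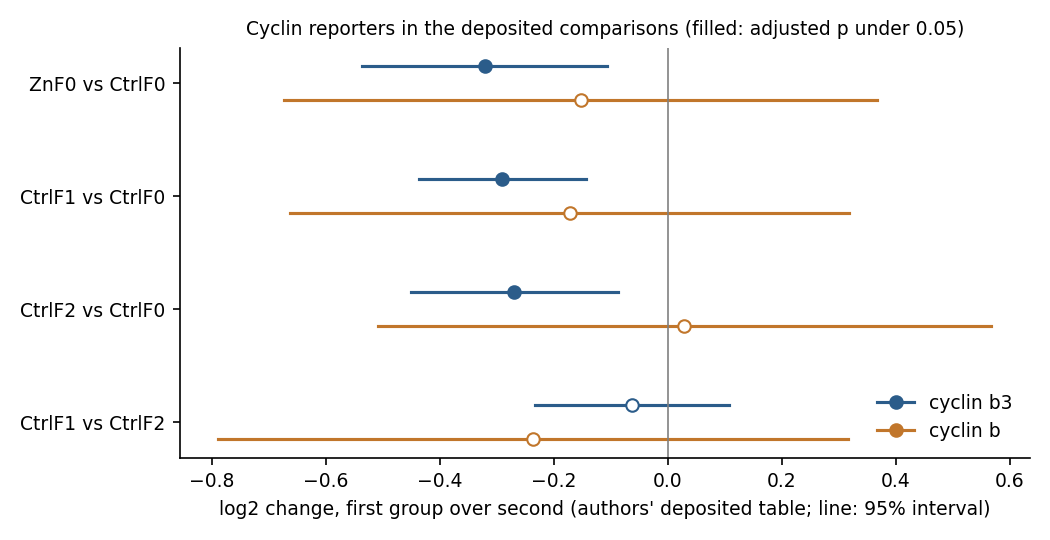
Log2 change of cyclin b3 (blue) and cyclin b (orange) in the 4 deposited comparisons, first group over second, with 95% intervals computed from the deposited t and p. The cyclin b3 intervals lie below 0 in the 3 comparisons with CtrlF0, and every cyclin b interval crosses 0.

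In the zinc comparison (ZnF0 against CtrlF0) the authors' deposited table gives cyclin b3 a log2 change of -0.32 ± 0.10 (SE computed from the deposited t) with a limma adjusted p of 0.0196. Of 2220 reporters, 33.2 percent passed in either direction and 16.4 percent passed as lower, so a call is common. By p-value cyclin b3 was 612 of 2220, and its change was larger in size than that of 58.2 percent of reporters. Its log-odds score B was -2.96 in the authors' deposited table, whereas 411 of the 738 called reporters had a B above 0. ZnF0 daphnids were also 3 days older at sampling than CtrlF0 daphnids, and zinc and age cannot be told apart here.

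For CtrlF1 against CtrlF0, neither of which had added zinc, the authors' deposited table gives cyclin b3 a log2 change of -0.29 ± 0.07 with an adjusted p of 0.00371. Here 25 percent of 2226 reporters passed, 12.9 percent as lower, and cyclin b3 was 335 by p-value. This is the smallest adjusted p of the 4, with a log-odds score B of -0.59. For CtrlF2 against CtrlF0, the authors' deposited table gives -0.27 ± 0.09 with an adjusted p of 0.0483, just under the threshold. Of 2234 reporters, 12.5 percent passed, 7.39 percent as lower, and cyclin b3 was 270 by p-value. The lower cyclin b3 was therefore found between control generations as well as between zinc and control. CtrlF1 daphnids were also older than CtrlF0 daphnids (22 against 20 days), so generation and age cannot be told apart there. CtrlF2 and CtrlF0 were of equal age. The size of the deposited change differed between the 3 comparisons with CtrlF0 by less than its SE. All 3 calls of cyclin b3 ended when each deposited t was divided by the robust SD of t over all reporters, with adjusted p of 0.701, 0.256 and 0.609 for ZnF0, CtrlF1 and CtrlF2, recomputed from the authors' deposited table.

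Between the later controls no difference was called. The authors' deposited table for CtrlF1 against CtrlF2, where 30.8 percent of 2245 reporters passed and 16 percent as lower, gives cyclin b3 a log2 change of -0.06 ± 0.08 with a 95% interval of -0.23 to 0.11 and an adjusted p of 0.610. In a limma fit over all arrays the same contrast was -0.03 ± 0.18 with an interval of -0.39 to 0.34 (adjusted p = 0.944), which leaves room for a change as large as those against CtrlF0. The 3 control tables can be set against each other. The CtrlF2 against CtrlF0 change derived from the other control tables was -0.23 for cyclin b3, beside -0.27 as deposited, and 0.06 for cyclin b beside 0.03.

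Cyclin b gave log2 ratios of -0.02 and -0.44 on the CtrlF0 arrays. They were -0.17, -0.32 and -0.12 in ZnF0. On the CtrlF1 arrays they were -0.16 and -0.18, with no value on the third. ZnF0 and CtrlF1 lay inside the range of the CtrlF0 arrays, which was 0.43 wide. In CtrlF2 the values were -0.52, -0.14 and 1.04, and the array with the sample in Cy5 stood far above the others. Centring narrowed them to -0.17, 0.17 and 0.69 without bringing that array to the level of the rest.

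The authors' deposited table gives cyclin b a log2 change of -0.15 ± 0.24 in ZnF0 against CtrlF0 (adjusted p = 0.707) and the one for CtrlF1 against CtrlF0 gives -0.17 ± 0.23 (adjusted p = 0.695). It was 0.03 ± 0.25 for CtrlF2 against CtrlF0 (adjusted p = 0.971) and -0.24 ± 0.26 for CtrlF1 against CtrlF2 (adjusted p = 0.550), again from the authors' deposited table. The SE was 2.34 to 3.24 times that of cyclin b3, and the 95% interval of the zinc comparison ran from -0.67 to 0.37. That interval contains the cyclin b3 change of the same comparison, so these values do not show that cyclin b was unchanged. Cyclin b was among the dimmer reporters. In the authors' deposited table its average log2 expression was 4.88 in the zinc comparison, where 6.68 percent of reporters were dimmer, and 70.1 percent were dimmer than cyclin b3. In the comparisons that include CtrlF2, 11.3 to 15.7 percent of reporters were dimmer than cyclin b.

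Whether the cyclins differed from each other was not settled by these comparisons. The change of cyclin b3 minus that of cyclin b, both from the authors' deposited table, was -0.17 in ZnF0 against CtrlF0, with an error of 0.26 when the SEs are combined as the root of the sum of squares. It was -0.12 with an error of 0.24 for CtrlF1 and -0.30 with an error of 0.27 for CtrlF2, each against CtrlF0. For CtrlF1 against CtrlF2 it was 0.17 with an error of 0.27. Only the CtrlF2 against CtrlF0 value exceeded its error, and by a small margin. That error takes the SEs as independent, although both reporters were read on the same arrays. With the SEs added instead, its error was 0.34, and no value exceeded its error. From group means of the arrays the difference was -0.77 for CtrlF2 against CtrlF0, where the Cy5 array of CtrlF2 with high cyclin b enters. For the other comparisons, in the order above, array means gave -0.31, -0.27 and 0.50, each also over 1.5 times the size from the table.

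**Figure D2:**
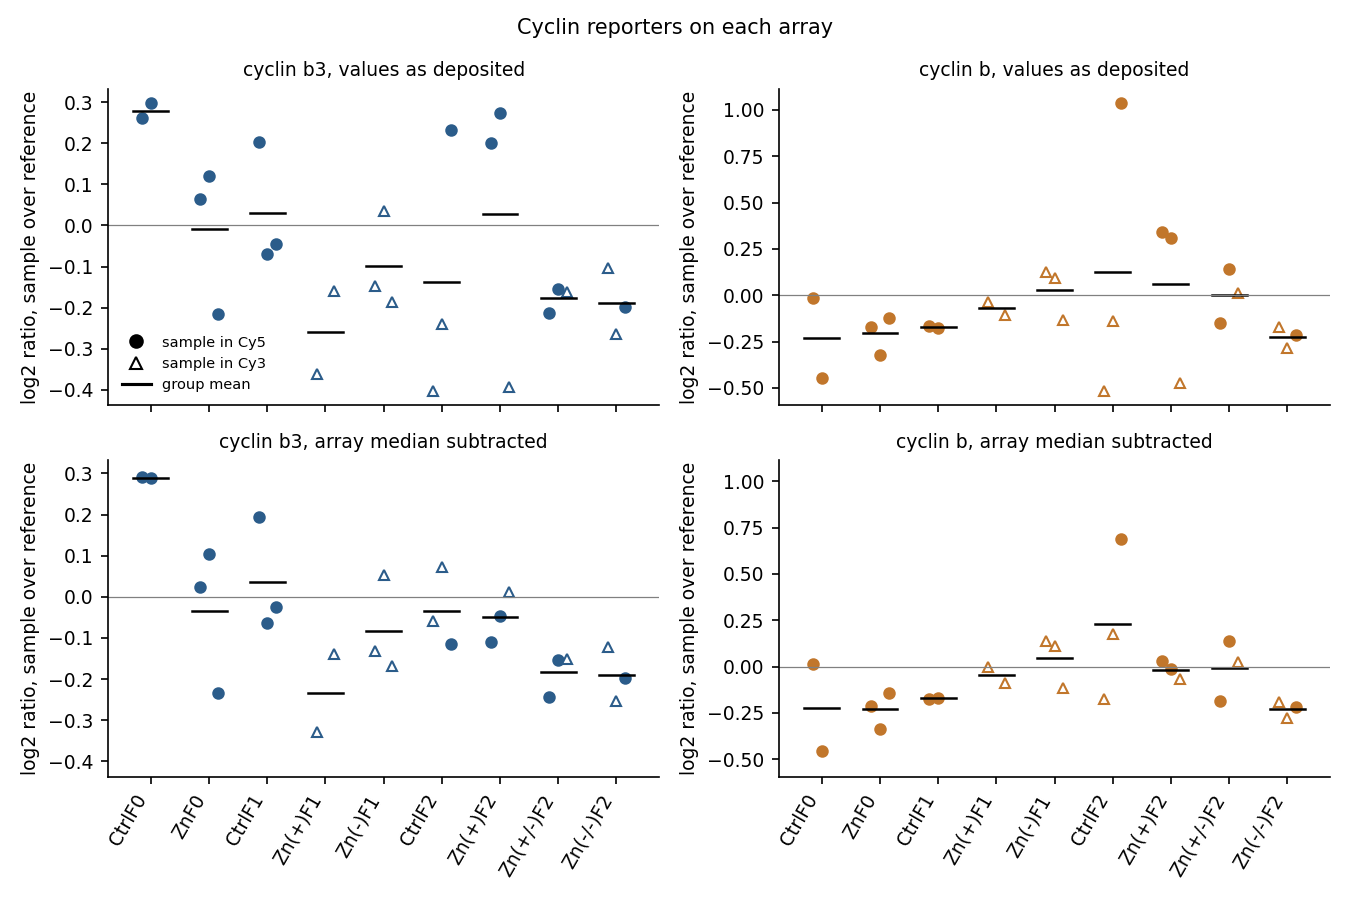
Log2 ratio of sample to reference for cyclin b3 (left) and cyclin b (right) on each array with a value, by group, as deposited (top) and with the array median subtracted (bottom). Filled circles carry the sample in Cy5, open triangles in Cy3, and lines are group means. Both centred CtrlF0 points of cyclin b3, at 0.29, lie above all others, and the highest cyclin b point is the Cy5 array of CtrlF2.

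Across all 9 groups, cyclin b3 was highest in CtrlF0, with a centred mean log2 ratio of 0.29 ± 0.00 (SD, n = 2). CtrlF1 followed at 0.04 ± 0.14 (n = 3), then CtrlF2 at -0.03 ± 0.10 (n = 3) and ZnF0 at -0.04 ± 0.18 (n = 3). Zn(+)F2 was at -0.05 ± 0.06 (n = 3) and Zn(-)F1 at -0.08 ± 0.12 (n = 3). These 5 middle groups lay within 0.12 of each other, about the pooled SD within groups of 0.11, so their order is not resolved. Below them were Zn(+/-)F2 at -0.18 ± 0.05 (n = 3), Zn(-/-)F2 at -0.19 ± 0.07 (n = 3) and Zn(+)F1 at -0.23 ± 0.13 (n = 2), which also differed from each other by less than that SD. The step down from Zn(-)F1 to Zn(+/-)F2 was smaller than that SD too, so the break between these sets is not resolved. The step from CtrlF0 to the next group was 0.25.

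After centring, both CtrlF0 arrays were above all 23 other arrays with a cyclin b3 value, of which the highest was CtrlF1 array 1 at 0.19. Of 1990 reporters with enough values, 18 had the same property, 0.905 percent. As deposited, 1 other array, Zn(+)F2 array 2 at 0.27, exceeded the lower CtrlF0 array, and 0.251 percent of reporters had both CtrlF0 arrays on top. With the duplicate counted once, the position of CtrlF0 rests on 2 arrays.

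The order of groups for cyclin b was different and less certain. CtrlF2 was highest at a centred mean of 0.23 ± 0.43 (n = 3), followed by Zn(-)F1 at 0.04 ± 0.14 (n = 3). CtrlF0 was at -0.22 ± 0.33 (n = 2) and ZnF0 lowest at -0.23 ± 0.10 (n = 3). The means of the 9 groups spanned 0.46 against a pooled SD within groups of 0.20, and all neighbours in this order differed by less than that SD. For cyclin b3 the corresponding values were 0.52 and 0.11.

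A limma fit over all arrays, with 1 coefficient per group and a dye term, gave the same contrasts with the spread between arrays as the error. In this limma fit neither cyclin passed in any of the 9 contrasts. At an unadjusted p under 0.05, 3 contrasts of cyclin b and 0 of cyclin b3 remained. These were CtrlF2 against CtrlF0, CtrlF1 against CtrlF2 and Zn(-)F1 against CtrlF1, where 13.8, 26.3 and 29.8 percent of all reporters had such a p. For cyclin b3 in ZnF0 against CtrlF0 the log2 change was -0.29 ± 0.18 (SE) with an adjusted p of 0.439, and 4.53 percent of reporters were called. For CtrlF1 against CtrlF0 it was -0.25 ± 0.18 with an adjusted p of 0.720. That contrast had 0 of 2212 reporters called by limma, with 252 at an unadjusted p under 0.05, and 82 called after centring. For CtrlF2 against CtrlF0 the change was -0.22 ± 0.19 with an adjusted p of 0.659, where 0.856 percent were called. The direction was the same as in the authors' deposited table and the sizes were close, while the SE was 1.70 to 2.49 times that of the table.

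Centring the arrays narrowed the errors. Cyclin b3 was then at -0.32 ± 0.12 in ZnF0 against CtrlF0 (limma adjusted p = 0.0868), -0.25 ± 0.12 in CtrlF1 against CtrlF0 (adjusted p = 0.307) and -0.37 ± 0.13 in CtrlF2 against CtrlF0 (adjusted p = 0.136). The shares of reporters called were 10.8, 3.71 and 1.62 percent. The 95% intervals of all 3 lay below 0, and none passed after adjustment. The authors' deposited table carries 19.9 degrees of freedom for cyclin b3 in the zinc comparison, recovered from t and p. For cyclin b it is 12.9, a gap of 7.0, while 6 arrays in 2 groups leave 4 residual degrees of freedom. Where limma's prior adds the same number to each reporter, more values than these arrays entered the table, and how they were weighed was not tested.

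**Figure D3:**
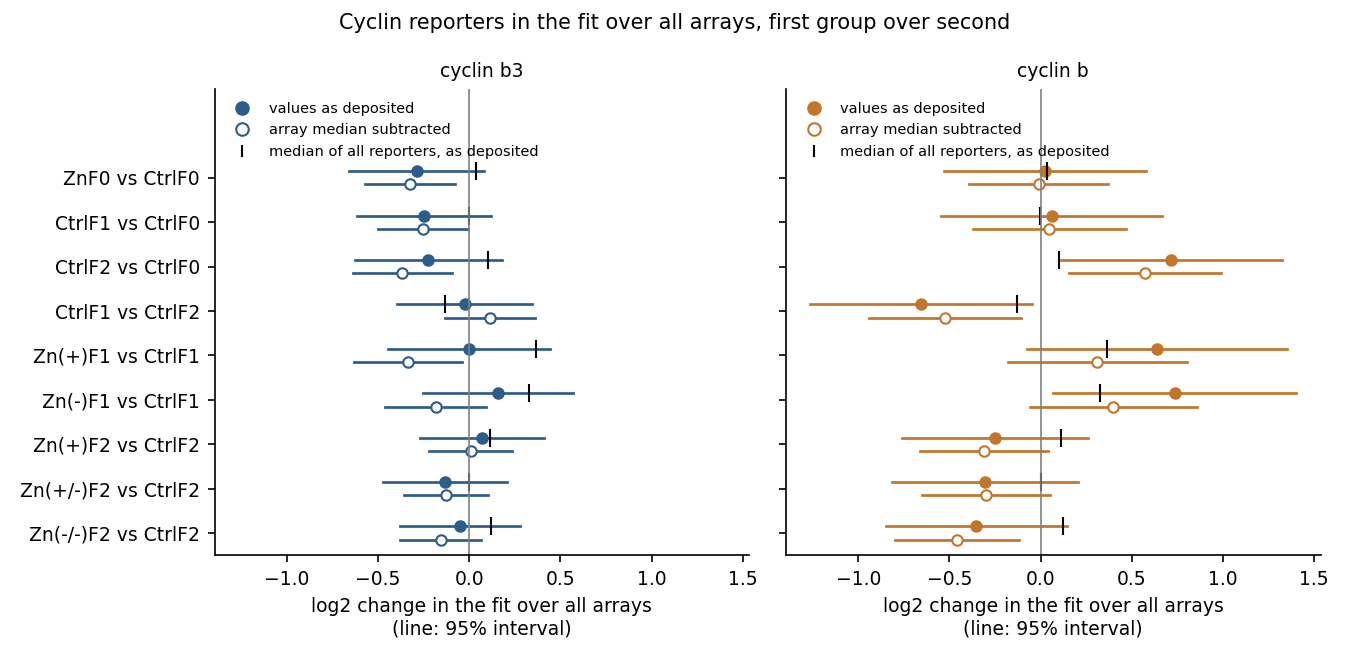
Log2 change of cyclin b3 (left) and cyclin b (right) in 9 contrasts of the fit over all arrays, with 95% intervals. Filled points use values as deposited, open points centred arrays, and black ticks mark the median of all reporters in the uncentred fit. In Zn(+)F1 and Zn(-)F1 against CtrlF1 that median lies at 0.37 and 0.33, and the uncentred cyclin values are shifted with it.

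For daphnids kept in zinc in the next generation, cyclin b3 read -0.36 and -0.16 on the Zn(+)F1 arrays, both below the CtrlF1 arrays. Of all reporters, 49 percent had no overlap between these groups (49.7 percent after centring), which also differ in dye. Zn(-)F1, returned to control medium, read -0.15, 0.03 and -0.19 and overlapped CtrlF1. In the fit with a dye term the cyclin b3 change was -0.00 ± 0.21 in Zn(+)F1 against CtrlF1 (limma adjusted p = 0.995, 13.7 percent of reporters called). The median of all reporters in that contrast was 0.37, and relative to it cyclin b3 was at -0.37. After centring it was -0.34 ± 0.14 with an adjusted p of 0.142 and 8.92 percent called. In Zn(-)F1 against CtrlF1 the cyclin b3 change was 0.16 ± 0.20 as deposited (adjusted p = 0.619, 12.3 percent called) and -0.18 ± 0.13 after centring (adjusted p = 0.411, 10.2 percent called). Relative to the median of all reporters it was -0.17 on both scales. Without the dye term, cyclin b3 was at -0.29 in Zn(+)F1 and -0.13 in Zn(-)F1 against CtrlF1, and neither passed.

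On single arrays of F1, cyclin b was on the higher side of CtrlF1, with no difference called. It read -0.03 and -0.11 in Zn(+)F1 and 0.12, 0.09 and -0.13 in Zn(-)F1. All of these were above the CtrlF1 arrays, of which 2 had a value, and 47 percent of reporters had no overlap between Zn(-)F1 and CtrlF1 (46.9 percent after centring). The fit gave 0.64 ± 0.34 in Zn(+)F1 (limma adjusted p = 0.222) and 0.74 ± 0.32 in Zn(-)F1 (adjusted p = 0.130), each against CtrlF1. Relative to the median of all reporters these were 0.27 and 0.41. Only the F2 groups held both orientations, so the dye term was estimated from F2 arrays alone. These include the arrays of CtrlF2 and Zn(+)F2, whose medians lay far from 0. Without the dye term the cyclin b changes were 0.10 and 0.20, and with array weights 0.12 and 0.24. Their size thus rests on the dye correction and on how arrays are weighted. Neither passed under any of these settings.

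Among the F2 groups, cyclin b3 read 0.20, 0.27 and -0.39 in Zn(+)F2, which was still in zinc, with the low value on the Cy3 array. After centring these were -0.11, -0.05 and 0.01, within the range of CtrlF2. In Zn(+/-)F2 the centred values were -0.24, -0.15 and -0.15, and in Zn(-/-)F2 they were -0.12, -0.25 and -0.20. Both groups lay below every centred CtrlF2 array, which 23 and 38.8 percent of reporters also did not overlap, and both overlapped CtrlF2 as deposited. For Zn(-/-)F2 the centred margin was small (highest -0.12 beside a lowest CtrlF2 value of -0.11). The limma changes against CtrlF2 were 0.07 ± 0.16 for Zn(+)F2 (adjusted p = 0.868), -0.13 ± 0.16 for Zn(+/-)F2 (adjusted p = 0.803) and -0.05 ± 0.16 for Zn(-/-)F2 (adjusted p = 0.893). The shares called were 3.19, 1.46 and 9.93 percent. After centring the changes were 0.01, -0.13 and -0.16, with 6.11, 2.83 and 17.4 percent of reporters called, and none of them passed.

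Cyclin b read 0.34, 0.31 and -0.47 in Zn(+)F2, -0.15, 0.14 and 0.01 in Zn(+/-)F2, and -0.17, -0.29 and -0.22 in Zn(-/-)F2. The last group had the narrowest spread and after centring lay below every CtrlF2 array, by a small margin (highest -0.19 beside a lowest of -0.17). As deposited it overlapped CtrlF2. After centring, 38.8 percent of all reporters had no overlap between these groups. The cyclin b change in Zn(-/-)F2 against CtrlF2 was -0.35 ± 0.23 in the limma fit (adjusted p = 0.372) and -0.46 ± 0.16 after centring (adjusted p = 0.0621, 17.4 percent of reporters called). Cyclin b was at -0.25 ± 0.24 in Zn(+)F2 (adjusted p = 0.647) and -0.31 ± 0.24 in Zn(+/-)F2 (adjusted p = 0.655). CtrlF2, to which all of these are compared, holds the Cy5 array with cyclin b at 1.04. Without that array the cyclin b change turned sign in all 3 groups, to 0.21 in Zn(+)F2, 0.15 in Zn(+/-)F2 and 0.015 in Zn(-/-)F2. The cyclin b3 changes without it were 0.22, 0.014 and 0.066.

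The same array enters the other CtrlF2 contrasts of cyclin b. With it, cyclin b was 0.72 ± 0.29 in CtrlF2 against CtrlF0 (limma adjusted p = 0.260) and -0.66 ± 0.29 in CtrlF1 against CtrlF2 (adjusted p = 0.151, 13.1 percent of reporters called). Without it these were 0.17 and -0.11. Leaving out CtrlF2 array 1 instead gave -0.84 for CtrlF1 against CtrlF2 with an adjusted p of 0.0471, the one call of a cyclin among the alternatives of this fit.

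Whether the difference between zinc and control groups changed with generation was tested as an interaction. These groups also differed in age in each generation, which cannot be told apart from zinc. In F1 they differed in dye as well, corrected only through the dye term. For cyclin b3 the difference in F1 minus that in F0 was 0.29 ± 0.27 (limma adjusted p = 0.543), and in F2 minus F0 it was 0.36 ± 0.24 (adjusted p = 0.581). These tests called 14.4 and 1.31 percent of reporters, and the median of all reporters was 0.38 in the former, relative to which cyclin b3 was at -0.09. For cyclin b these were 0.61 ± 0.43 (adjusted p = 0.387) and -0.27 ± 0.36 (adjusted p = 0.801). None passed, and the interval of the cyclin b3 value for F2 minus F0, from -0.14 to 0.86, does not show equal differences.

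**Figure D4:**
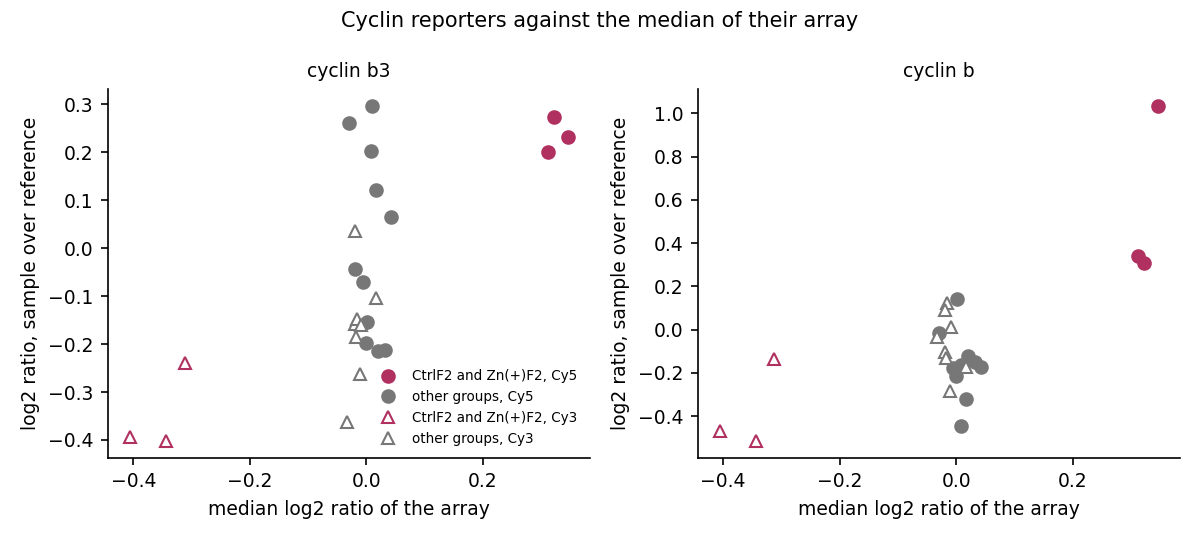
Log2 ratio of each cyclin on each array against the median log2 ratio of that array. Circles carry the sample in Cy5 and triangles in Cy3, and the arrays of CtrlF2 and Zn(+)F2 are in red. The 6 red arrays lie at array medians of -0.40 to -0.31 and 0.31 to 0.35, and the other arrays have medians near 0. Among the red arrays, both cyclins are lower on every Cy3 array than on every Cy5 array.

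Both cyclins moved with the array median over the whole set, with Pearson r = 0.68 for cyclin b3 over 25 arrays and 0.74 for cyclin b over 24, as a description over arrays that share the reference pool. Without the arrays of CtrlF2 and Zn(+)F2 these were 0.17 over 19 arrays and -0.43 over 18. The relation therefore rests on those 6 arrays. Between the cyclins themselves r was 0.44 over 24 arrays as deposited, beside a median of 0.37 for cyclin b3 with all reporters. After centring it was -0.16, beside a median of 0.02 for cyclin b3 with all reporters.

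The reporter most like cyclin b3 among those with a name was nucleosome assembly, which by its name belongs to the packaging of DNA onto histones, as happens when chromosomes are copied. Pearson r over 25 arrays was 0.80 as deposited and 0.70 after centring, the highest of 34 named reporters on both scales. Nucleosome assembly was also highest in CtrlF0, at a centred mean of 0.22 ± 0.03 (SD, n = 2), and lowest in Zn(-/-)F2, at -0.51 ± 0.08 (n = 3). The reporter was picked for its likeness on these same arrays, so neither these levels nor the changes below are separate evidence. In the authors' deposited table nucleosome assembly was lower, at a log2 change of -0.38 ± 0.08 in ZnF0 (adjusted p = 0.00068) and -0.28 ± 0.09 in CtrlF1 (adjusted p = 0.0245), each against CtrlF0. For CtrlF2 against CtrlF0 it was -0.16 ± 0.09 with an adjusted p of 0.294 in the authors' deposited table, where cyclin b3 passed.

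Next among named reporters were ferritine bis (r = 0.76 over 22 arrays) and Mta (r = 0.69 over 23). After centring, neither was among the 3 most alike, and ferritine oud (r = 0.37) and proteasomesubunit (r = 0.36) took their places far below nucleosome assembly. Over all reporters the unnamed EBT_DamaRep_ASP5 C6 came closest, with r = 0.91 over 24 arrays and 0.78 after centring, and EBT_DamaEne_ASP5 C12 was next with 0.87 over 25 arrays and 0.75. In the authors' deposited table EBT_DamaRep_ASP5 C6 changed by -0.01 ± 0.11 in ZnF0 against CtrlF0 (adjusted p = 0.962). There EBT_DamaEne_ASP5 C12 changed by -0.14 ± 0.08 (adjusted p = 0.214). Of the reporters most like cyclin b3 on both scales, nucleosome assembly was thus called lower in that comparison. Both unnamed reporters were not.

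Cyclin b was most like peroxinectin among named reporters, with r = 0.87 over 24 arrays and 0.75 after centring. Peroxinectin is a cell adhesion protein of the blood cells in other crustaceans. A pair of reporters named cyplasin s followed, with r = 0.79 and 0.67. Among unnamed reporters EBT_DamaRep_ASP8 G5 and EBT_DamaRep_ASP8 F1 reached 0.88 each. After centring these unnamed places went to EBT_DamaRep_ASP5 G6 (r = 0.82 over 23 arrays) and EBT_DamaMol_ASP8 D10 (r = 0.78 over 24). By likeness to cyclin b, cyclin b3 ranked 902 of 2208 reporters as deposited and 1496 after centring.

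Of the other names searched for cell division and chromatin, 6 reporters were found, 1 each for kinase, tubulin, histone, nucleosome, chromobox and proteasome. No cyclin-dependent kinase, ubiquitin, kinesin or DNA polymerase name was found, so the partners of the cyclins were not measured by name. In the authors' deposited table, 1 of the 6 was called higher and 1 lower in ZnF0 against CtrlF0, 0 higher and 2 lower in CtrlF1 against CtrlF0, and 0 in either direction in the other comparisons. Over all reporters 33.2, 25, 12.5 and 30.8 percent were called, so 2 of 6 is near the share of all reporters in the first and second comparison. The list's median log2 change was 0.03 beside 0.02 over all reporters in the zinc comparison and -0.18 beside 0.01 for CtrlF1 against CtrlF0. For CtrlF2 against CtrlF0 it was 0.01 beside 0.01, and for CtrlF1 against CtrlF2 it was -0.15 beside -0.02. At an unadjusted p under 0.05, 1 reporter of the list remained in each of these last comparisons. In the limma fit over arrays 0 of the 6 were called in any of the 9 contrasts, with 2 of 54 tests at an unadjusted p under 0.05.

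The kinase reporter, named for an enzyme class that passes phosphate to proteins and without a stated family, went opposite ways. In the authors' deposited table it was higher in ZnF0 (0.37 ± 0.12, adjusted p = 0.0194) and lower in CtrlF1 (-0.45 ± 0.15, adjusted p = 0.0394), each against CtrlF0. Histone deacetylase, which removes acetyl groups from histones, was at 0.36 ± 0.14 in the zinc comparison of the authors' deposited table, with an adjusted p of 0.0547. Tubuline, the building block of the spindle and of other microtubules, was at -0.08 ± 0.09 there (adjusted p = 0.556). Chromobox, a name of chromatin-binding proteins, was at 0.13 ± 0.17 (adjusted p = 0.624), again in the authors' deposited table. Proteasomesubunit, a part of the complex that destroys cyclins, was at -0.28 ± 0.36 (adjusted p = 0.630) in the authors' deposited table, and it was as dim as cyclin b, with an average log2 expression of 4.37.

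**Figure D5:**
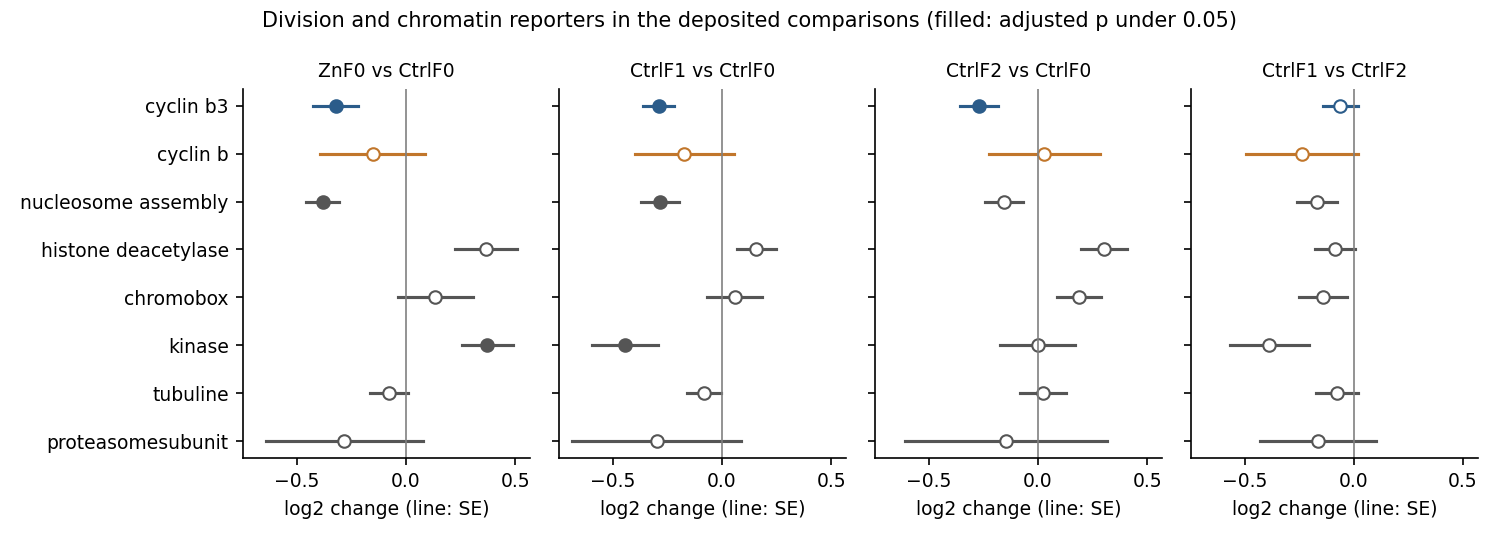
Log2 change with its SE for both cyclins and the 6 other division and chromatin reporters in the 4 deposited comparisons, first group over second, filled where the adjusted p is under 0.05. Cyclin b3 and nucleosome assembly are filled and below 0 in the first and second panels, kinase is filled on opposite sides there, and no reporter is filled for CtrlF1 against CtrlF2.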

How the data were processed

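Deposited tables of 4 comparisons hold, per the file headers, a log2 change, an average log2 expression, a raw p-value, an adjusted p-value, and t and B scores, made by the authors with limma, per the submitters' processing notes. For background correction and spot handling, no step is given in the sources used here. The direction of each comparison, first group over second, follows the order of groups in its deposited table's name. SE was the log2 change divided by t. Per-array log2 ratios came from the deposited value table, matched by identifier for 2261 reporters. Its direction, sample over reference, was taken from the dyes in the labels and checked: differences of group means had rank correlations of 0.94, 0.90, 0.81 and 0.85 with the deposited changes across reporters, which are not independent replicates. Opposite-dye arrays of a group correlated at -0.02 to 0.67, lowest in Zn(+)F2, where the check is weak.

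Arrays were fitted with limma 3.58.1 in R 4.3.3 (lmFit, eBayes; group and dye terms; Benjamini-Hochberg over all reporters; called under an adjusted p of 0.05), tested on simulated data. The identical CtrlF0 arrays were averaged, leaving 26. For arrays, their number limits the precision. The array of Zn(+)F1 whose title reads ZnF1 was placed by its exposure label.

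Named reporters were both cyclins, all matching a division and chromatin keyword list, and the 3 named and 2 other reporters with the highest Pearson r with each member over at least 20 arrays. Members and lists were chosen with earlier results of these data known. Alternatives covered centring, scaling, the dye term, array weights, filters, a replicate block and leaving out arrays.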

Additional observations from a re-analysis of the deposited data

How the results depend on the processing

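The cyclin b3 calls of the authors' deposited table held when its median change was subtracted and when the dimmest 25 percent of reporters were left out. They did not hold when t was divided by its robust SD (adjusted p = 0.701 for ZnF0, 0.256 for CtrlF1 and 0.609 for CtrlF2, each against CtrlF0, with the changes themselves, -0.32, -0.29 and -0.27, left as they are) or when the value came from the fit over arrays (-0.29, -0.25 and -0.22). Cyclin b turned sign in that fit, to 0.026 for ZnF0 and 0.060 for CtrlF1. Reporters called fell to 101, 171, 25 and 118 with t divided by its robust SD, and to 167, 103, 64 and 132 with a log2 change of at least 1, in the order ZnF0, CtrlF1 and CtrlF2 against CtrlF0, and CtrlF1 against CtrlF2. From array means, cyclin b3 minus cyclin b moved to -0.77 for CtrlF2 against CtrlF0, to -0.31 for ZnF0, to -0.27 for CtrlF1 and to 0.50 for CtrlF1 against CtrlF2.

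In the fit over arrays, under settings other than leaving out an array, 148 values kept their sign and stayed uncalled and 23 turned sign; the cause was not tested. Of the 148, 49 moved by over 1.5 times. Cyclin b3 in CtrlF2 against CtrlF0 went from -0.22 to -0.42 without the dye term and -0.51 with array weights. Cyclin b went from 0.72 to 0.36 and 0.10 in that contrast and from -0.66 to -0.30 and -0.047 in CtrlF1 against CtrlF2. Centring gave cyclin b -0.010 for ZnF0 against CtrlF0, also without the dye term, and cyclin b3 0.11 for CtrlF1 against CtrlF2 (0.069 without the dye term, 0.088 when scaled) and -0.18 for Zn(-)F1 (-0.12 and -0.16). For Zn(+)F2, cyclin b3 went to -0.015 when centred without the dye term and to -0.0061 when scaled. Without the dye term alone, and with only the groups compared, cyclin b3 was 0.17 for CtrlF1 against CtrlF2 and -0.13 for Zn(-)F1. Array weights gave cyclin b 0.40 in Zn(+)F2 and 0.074 in Zn(+/-)F2, and cyclin b3 0.23 for CtrlF1 against CtrlF2, 0.052 in Zn(+/-)F2, -0.046 in Zn(-)F1 and 0.064 in Zn(-/-)F2. Counting the identical CtrlF0 arrays separately, chosen after seeing the data, gave cyclin b -0.045 for ZnF0 and -0.011 for CtrlF1. With that count the SE of cyclin b3 for ZnF0 against CtrlF0 went from 0.18 to 0.15. Cyclin b had no value with the dimmest reporters left out, and neither cyclin had one where a value on every array was required.

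With a replicate block (the replicate number as a block), cyclin b3 in Zn(+)F1 against CtrlF1 went to 0.016 from -0.0024, cyclin b3 in ZnF0 against CtrlF0 was -0.27, and no call changed. The numbers did not pair the samples: deviations of same-numbered samples had a median rank correlation of -0.0023 over 100 pairs, beside 0.0080 over 200 others.

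Leaving out 1 array at a time gave cyclin b3 -0.35 to -0.19 for ZnF0, -0.34 to -0.20 for CtrlF1 and -0.40 to -0.16 for CtrlF2 against CtrlF0, -0.11 to 0.15 for CtrlF1 against CtrlF2, -0.10 to 0.10 for Zn(+)F1, 0.09 to 0.24 for Zn(-)F1, -0.011 to 0.26 for Zn(+)F2, -0.31 to 0.014 for Zn(+/-)F2 and -0.15 to 0.082 for Zn(-/-)F2. For cyclin b these were -0.19 to 0.24, -0.15 to 0.27, 0.17 to 0.93, -0.84 to -0.11, 0.60 to 0.67, 0.69 to 0.82, -0.46 to 0.21, -0.61 to 0.15 and -0.60 to 0.015. A lone array left in a group was taken to vary like the other groups.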
